A study of Mus musculus with 6 samples.

Results

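A set of 10 mouse genes of the epithelial to mesenchymal transition was followed through normal pancreas and pancreatic tumours: the transcription factors Snai1, Snai2, Twist1, Twist2, Zeb1, Zeb2 and Prrx1, the mesenchymal cadherins Cdh2 and Cdh11, and the intermediate filament gene Vim. They were chosen by gene symbol, as core members of this pathway. All 10 were found among the 27179 gene IDs of the deposited counts, and all 10 were among the 16306 genes tested. RNA sequencing covered 6 libraries in 3 groups of n = 2. The normal group was whole pancreas of C57BL/6 mice. The H7 tumours grew from PANC02-H7 cells and the UNKC tumours from UN-KC-6141 cells, both mouse pancreatic carcinoma lines, which were injected surgically into the pancreas of C57BL/6 mice and collected at day 20. The mice of all 3 groups received no drug, and each tumour group stands for 1 cell line. Nothing in the labels says from how many mice the 2 libraries of a group came, so the p-values measure the spread between these samples, which may be technical.

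In epithelial cells, E-cadherin (Cdh1) joins neighbouring cells, and keratins such as Krt8 and Krt18 form the intermediate filaments. During the epithelial to mesenchymal transition, the Snail and Zeb zinc finger factors and the Twist helix-loop-helix factors bind E-box sequences and can repress Cdh1, while N-cadherin (Cdh2) and vimentin (Vim) come up. This exchange of cadherins is called the cadherin switch. In the pancreas the same factors are also expressed by fibroblasts, and Zeb2 and Vim by macrophages and other leukocytes as well, so whole-tissue RNA adds up several cell types. In such bulk samples, fewer cells of a type and less RNA per cell cannot be told apart.

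The promoters of Snai1, Twist1 and Twist2 are shown because the transcripts of these 3 factor genes separated the tumour lines, and in opposite directions for Snai1 and the Twist pair. Each line gives the 250 bases before the transcription start on the plus strand, from RefSeq with build GRCm38.p6. Capitals mark the E-box CANNTG, the CCAAT box (CCAAT or ATTGG) and the TATA-like TATAAA.
Snai1, chr2:167537945-167538194: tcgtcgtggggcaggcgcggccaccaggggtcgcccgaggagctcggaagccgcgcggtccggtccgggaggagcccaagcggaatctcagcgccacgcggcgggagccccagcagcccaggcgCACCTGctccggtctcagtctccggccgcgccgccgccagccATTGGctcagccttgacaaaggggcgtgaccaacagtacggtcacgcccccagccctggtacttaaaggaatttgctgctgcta
Twist1, chr12:33957421-33957670: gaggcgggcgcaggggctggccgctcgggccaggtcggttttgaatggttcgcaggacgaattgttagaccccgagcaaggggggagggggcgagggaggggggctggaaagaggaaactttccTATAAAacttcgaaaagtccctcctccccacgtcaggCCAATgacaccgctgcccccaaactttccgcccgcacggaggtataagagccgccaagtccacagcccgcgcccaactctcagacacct
Twist2, chr1:91801211-91801460: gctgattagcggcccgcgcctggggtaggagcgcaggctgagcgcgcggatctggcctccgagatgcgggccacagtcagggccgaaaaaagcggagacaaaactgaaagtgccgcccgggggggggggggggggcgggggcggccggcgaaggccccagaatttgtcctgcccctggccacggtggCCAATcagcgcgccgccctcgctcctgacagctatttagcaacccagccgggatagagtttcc
The Snai1 stretch held 1 E-box, CACCTG, 126 bases before the start, and a CCAAT box in reverse at 84 bases. CACCTG or its complement CAGGTG is the E-box form bound by Snail and Zeb factors, and it also counts as a match to CANNTG. The Twist1 stretch held TATAAA at 126 bases and CCAAT at 89 bases, 1 GC box (GGGCGG or its complement) at 62 bases, and no CANNTG. The Twist2 stretch held CCAAT at 63 bases and 4 copies of the GC box GGGCGG on either strand, and it overlaps an exon of the predicted gene Gm29100. Of 32851 promoter windows of this length searched on both strands, 17.22% held CAGGTG or CACCTG, 66.22% CANNTG, 12.37% TATAAA, 33.85% the CCAAT box and 32.74% GGGCGG. The GC content was 70% for Snai1, 62.4% for Twist1 and 68.8% for Twist2, against a median of 52.4% over all windows. These matches describe letters in the sequence, not binding.

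By the deposited counts the tumour libraries held 33332516 to 40507546 reads in genes and the normal libraries 12077320 and 8204225. Ribosomal RNA took 86.4% and 85.0% of the normal reads and 20.1% to 27.8% of the tumour reads, so 780777 and 699044 reads carried the other genes in normal pancreas after ribosomal RNA, Lars2 and 1 unnamed gene were set aside. The depth and the group cannot be told apart. Levels are CPM, the read count scaled to library size, here after TMM scaling, with factors of 0.179 and 0.256 in normal pancreas and 2.07 to 2.23 in the tumours. With library totals alone, the median log2 fold change of all tested genes would be 3.61 in H7 and 3.77 in UNKC tumours against normal pancreas, in place of 0.34 and 0.42, so changes against normal pancreas are relative to the TMM scaling. Counts held both reads of a pair. Summed CPM of 7 markers of acinar cells, the main cells of normal pancreas, was 10320 and 9927 in the normal libraries and at most 34.0 in a tumour. Replicate 2 of each tumour group also held skeletal muscle RNA. The summed CPM of 6 muscle markers was 483 in H7 and 1789 in UNKC tumours, against 1.45 and 1.02 in replicate 1 and 6.94 and 2.39 in normal pancreas, where Tnnt3 and Actn3 were at 0.

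The genes called against normal pancreas were not the same in the 2 tumour groups, with Zeb2 and Vim called in both. In H7 tumours 3 of the 10 genes rose against normal pancreas, Snai1, Zeb2 and Vim, and none fell, at an adjusted p under 0.05 in edgeR's quasi-likelihood test over all genes. In UNKC tumours 6 rose, Twist1, Twist2, Zeb1, Zeb2, Cdh2 and Vim, and none fell. Among all genes tested in H7 tumours, 29.6% rose and 21.9% fell, 51.5% in all, so 3 of 10 is near the background. In UNKC tumours 29.1% of all genes rose and 19.3% fell, 48.5% in all. For 8 of the 10 genes both tumour libraries lay above or below both normal ones, in H7 as in UNKC tumours, which held for 76.9% and 76.6% of all genes. The authors' deposited table for H7 tumours gives 3 of the 10 as higher, 1 (Prrx1) as lower and 1 (Twist2) with no adjusted p. Of all 15306 genes in it, with or without an adjusted p, 23.1% were higher and 23.2% lower. The authors' deposited table for UNKC tumours gives 5 as higher, where 22.6% were, and does not call Zeb2. Both comparisons use the same 2 normal libraries. With library totals alone, 7 of the 10 were higher in H7 and 10 in UNKC tumours.

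Between the tumour lines 9 of the 10 genes differed, where 18.3% of all genes did. Snai1 and Zeb2 were higher in H7 tumours, a direction shared by 7.14% of all genes. Snai2, Twist1, Twist2, Zeb1, Prrx1, Cdh2 and Cdh11 were lower in H7 tumours, as were 11.1% of all genes. Snai2 and Twist1 exceeded the low-count cutoff in 1 H7 library, 2 UNKC libraries and 0 normal libraries. They thus entered the test only with the UNKC libraries, where they were high. Their lower level in H7 tumours is not independent of that filter. The median log2 difference was -2.66 for the 10 genes and -0.02 for all genes. For all 10 genes both libraries of one tumour group lay above both of the other, which was the case for 70.4% of all genes. The counts rested on having 2 libraries a group. Without H7 replicate 1, H7 replicate 2, UNKC replicate 1 or UNKC replicate 2 the number lower in H7 tumours was 2, 5, 4 and 4, the number higher was 0, 0, 0 and 1, and the number of all genes called went from 2981 to 561, 1094, 1319 and 1720.

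**Figure D1:**
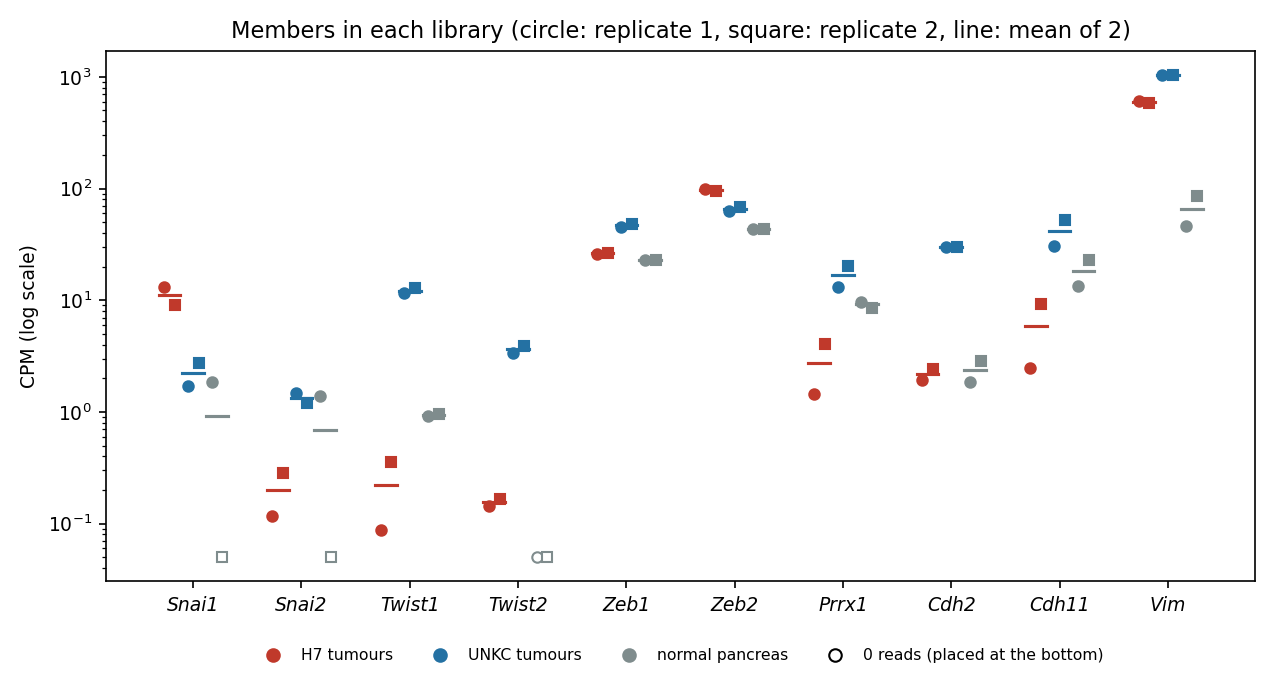
CPM of the 10 genes in each library on a log axis, coloured by group, with circles for replicate 1, squares for replicate 2 and a line at the mean of 2. H7 tumours sit highest for Snai1 and Zeb2, and UNKC tumours for Twist1, Twist2, Zeb1, Prrx1, Cdh2, Cdh11 and Vim; open symbols at the bottom are libraries with 0 reads.

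Snai1 encodes Snail, a zinc finger repressor of Cdh1. The gene lies on chromosome 2 (GRCm38, 167538195-167542814). Its level was 13.3 and 9.13 CPM in the H7 libraries, 1.71 and 2.74 CPM in the UNKC libraries, and 1.85 and 0 CPM in normal pancreas. Both H7 libraries stood above all others, while UNKC and normal pancreas overlapped. The normal values rest on 4 reads from 2 read pairs in 1 library. The H7 level was 11.8-fold that of normal pancreas, with a 95% counting interval (exact binomial on read pairs) from 3.26 to 97.6 and an edgeR adjusted p of 0.0122. It was no longer called without H7 replicate 1 (log2 fold change 3.35, edgeR adjusted p = 0.0567), and without normal replicate 2 the log2 fold change was 2.63. In UNKC tumours the log2 fold change was 1.24 ± 0.97 (SE, edgeR adjusted p = 0.332). Against UNKC tumours Snai1 was higher in H7 by a log2 difference of 2.33 ± 0.50 (SE, edgeR adjusted p = 0.0236), a call lost without H7 replicate 1 (edgeR adjusted p = 0.200), H7 replicate 2 (0.0890) or UNKC replicate 1 (0.144).

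Snai2 encodes Slug, the second Snail family repressor (chromosome 16, 14705852-14709395). It was the reverse of Snai1: 0.116 and 0.282 CPM in H7, 1.48 and 1.21 CPM in UNKC, and 1.39 and 0 CPM in normal pancreas. The H7 libraries held 8 and 22 reads and the UNKC libraries 134 and 103. The 3 reads of normal pancreas gave no usable comparison, with edgeR adjusted p of 0.353 for H7 and 0.540 for UNKC tumours. Between the tumours Snai2 was lower in H7 by a log2 difference of 2.72, that is -2.72 ± 0.63 (SE, edgeR adjusted p = 0.0269). That call was lost without H7 replicate 1 (-2.22, edgeR adjusted p = 0.242), H7 replicate 2 (-3.51, 0.0934) or UNKC replicate 1 (-2.56, 0.115). Within a library, the log2 ratio of Snai2 to Snai1 per kilobase was -7.01 and -5.29 in the H7 libraries, against -0.54 and -1.52 in the UNKC libraries, so Snai1 exceeded Snai2 in all 4 and by far more in H7. With 2 libraries against 2, the exact permutation test cannot go below p = 0.333, the value it gave (adjusted p = 0.519 over 14 ratio tests).

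Twist1 and Twist2 encode closely related helix-loop-helix factors of mesoderm and mesenchyme. Twist1 (chromosome 12, 33957671-33959831) reached 11.7 and 12.7 CPM in UNKC tumours, against 0.0869 and 0.359 CPM in H7 tumours and 0.926 and 0.954 CPM in normal pancreas. The UNKC libraries held 1053 and 1088 Twist1 reads and the H7 libraries 6 and 28. The 3 groups did not overlap. In UNKC tumours Twist1 was 13.0-fold the normal level, with a 95% counting interval from 3.59 to 107 on 2 normal read pairs and an edgeR adjusted p of 0.00593. In H7 tumours the log2 fold change against normal pancreas was -2.04 ± 1.08 (SE, edgeR adjusted p = 0.158), with a counting interval on the log2 scale from -4.10 to 1.14; without H7 replicate 2 it was -3.37 (edgeR adjusted p = 0.0129).

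Twist1 gave the largest difference between the tumour lines among the 10 genes, at -5.73 ± 0.53 on the log2 scale (SE, H7 over UNKC, edgeR adjusted p = 0.00153). As given above, Twist1 had passed the low-count filter only with the UNKC libraries. It was called under all 13 alternatives, at -5.05 without H7 replicate 1 and -7.09 without H7 replicate 2. Twist2 (chromosome 1, 91801461-91848034) followed the same pattern, with 3.33 and 3.92 CPM in UNKC and 0.145 and 0.167 CPM in H7 tumours. Normal pancreas had 0 Twist2 reads in both libraries, which at this depth allows up to 1.41 CPM (3 read pairs over the group). UNKC tumours were therefore at least 2.57-fold higher than normal pancreas (edgeR adjusted p = 0.00738), and no fold can be given for H7 tumours, whose level lies under that limit. Twist2 in H7 over UNKC tumours was -4.52 ± 0.39 on the log2 scale (SE, edgeR adjusted p = 0.00297), and -4.40 without H7 replicate 1, where it was not called (edgeR adjusted p = 0.0586).

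The Zeb factors, large zinc finger homeobox repressors of epithelial genes, divided between the lines on a smaller scale. Zeb1 (chromosome 18) was at 26.0 and 26.7 CPM in H7, 45.2 and 48.3 CPM in UNKC, and 22.7 and 22.9 CPM in normal pancreas. UNKC tumours were above both other groups. Zeb1 rose in UNKC tumours by a log2 fold change of 1.04 ± 0.13 (SE, edgeR adjusted p = 0.00158), against 0.21 ± 0.13 in H7 tumours (SE, edgeR adjusted p = 0.236). Zeb2 (chromosome 2, 44983512-45117442) was at 99.0 and 95.8 CPM in H7, 62.8 and 68.0 CPM in UNKC, and 43.0 and 43.4 CPM in normal pancreas. All 3 groups stood apart, in the order H7, UNKC, normal. Zeb2 rose by 1.17 ± 0.12 in H7 (SE, edgeR adjusted p = 0.00069) and by 0.60 ± 0.12 in UNKC tumours (SE, edgeR adjusted p = 0.00849). The UNKC call was lost with upper-quartile factors (0.23, edgeR adjusted p = 0.166), with the authors' fragment counts (0.39, 0.0897) and without UNKC replicate 2 (0.56, 0.0628). Zeb2 overlaps the antisense gene Zeb2os, which held 512 reads over the 6 libraries. Whether the libraries keep strand is not given, so reads of the pair cannot be told apart.

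Between the lines the Zeb genes moved in opposite directions. Zeb1 was -0.83 ± 0.12 (SE, edgeR adjusted p = 0.00845) and Zeb2 0.57 ± 0.12 (SE, edgeR adjusted p = 0.0223) on the log2 scale, H7 over UNKC. Each call was lost when any 1 of the 4 tumour libraries was left out, with edgeR adjusted p from 0.0648 to 0.116 for Zeb1 and from 0.105 to 0.184 for Zeb2. Within a library the Zeb2 to Zeb1 ratio per kilobase was 2.42 and 2.28 in H7, 0.884 and 0.898 in UNKC, and 1.20 in each normal library. Zeb2 was thus the more abundant Zeb transcript in H7 tumours and normal pancreas, and Zeb1 in UNKC tumours. The mean log2 ratio differed by 1.40 between H7 and UNKC tumours and by 0.97 between H7 tumours and normal pancreas (exact permutation p = 0.333, the smallest possible). Summed macrophage and leukocyte markers moved with Zeb2: all 7 were detected in every library, with summed CPM of 633 to 805 in H7, 388 to 394 in UNKC and 119 to 203 in normal pancreas. Csf1r, the receptor that defines macrophages, was at 149 and 125 CPM in H7, 53.6 and 55.8 CPM in UNKC, and 17.6 and 28.2 CPM in normal pancreas. Lyz2 (445 and 318 CPM in H7, 183 and 177 CPM in UNKC tumours) made up most of the H7 sum. The markers did not all follow this order: Cd14 was at 21.9 and 17.0 CPM in H7 and 48.1 and 43.7 CPM in UNKC tumours, and Itgam overlapped between the lines. Their part in the Zeb2 difference was not tested.

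Prrx1 encodes a paired-related homeobox factor of mesenchyme (chromosome 1, 163245119-163315145). It was at 1.43 and 4.09 CPM in H7, 13.1 and 20.2 CPM in UNKC, and 9.72 and 8.59 CPM in normal pancreas. H7 tumours lay lowest and UNKC tumours highest, with no overlap. Prrx1 was lower in H7 than in UNKC tumours, at -2.59 ± 0.51 on the log2 scale (SE, edgeR adjusted p = 0.0204). The call was lost without H7 replicate 1 (edgeR adjusted p = 0.0722) or UNKC replicate 2 (-2.24, 0.0639), and the difference was -3.53 without H7 replicate 2. Against normal pancreas neither change passed: -1.72 ± 0.59 in H7 (SE, edgeR adjusted p = 0.0503) and 0.86 ± 0.56 in UNKC tumours (SE, edgeR adjusted p = 0.253). The H7 value lay at the threshold, and it was called without H7 replicate 2 (-2.64, edgeR adjusted p = 0.0129), with upper-quartile factors (-2.09, 0.0272) and by DESeq2 (-1.87, adjusted p = 0.00772). In the authors' deposited table the log2 fold change of Prrx1 in H7 tumours was -1.43 with an adjusted p of 0.0368. With library totals alone it turned to 1.59.

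**Figure D2:**
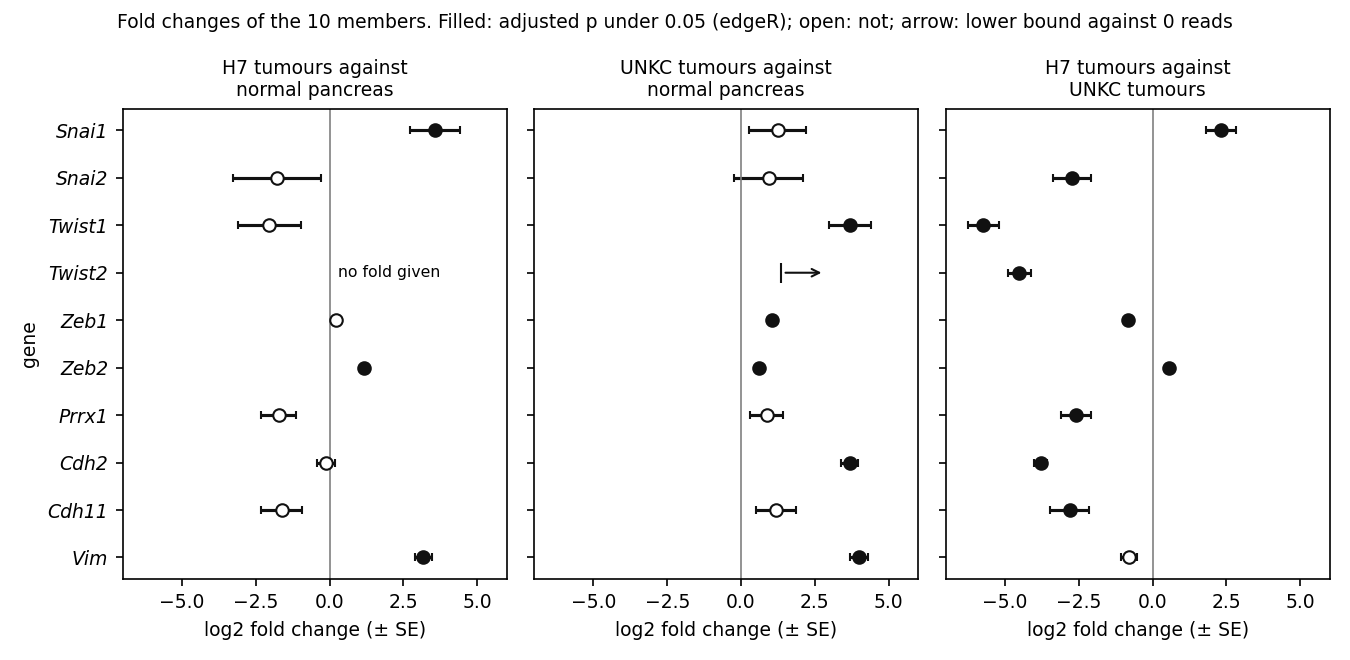
Log2 fold changes with standard errors (horizontal bars) of the 10 genes in the 3 comparisons; filled points passed an edgeR adjusted p of 0.05, open points did not, and the arrow for Twist2 is a lower bound against 0 reads. Of the points, 3 are filled for H7 against normal pancreas, 5 with the bound as the sixth call for UNKC against normal pancreas, and 9 for H7 against UNKC tumours, where Snai1 and Zeb2 lie to the right of 0.

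N-cadherin, the product of Cdh2 (chromosome 18), is the cadherin whose gain defines the switch. Cdh2 was at 30.0 and 30.2 CPM in UNKC tumours, at 1.93 and 2.41 CPM in H7 tumours, and at 1.85 and 2.86 CPM in normal pancreas. The UNKC libraries stood far above the other 4, and the H7 and normal libraries overlapped. Cdh2 rose in UNKC tumours by a log2 fold change of 3.68 ± 0.28 (SE, edgeR adjusted p = 0.000282). In H7 tumours the log2 fold change was -0.11 ± 0.31 (SE, edgeR adjusted p = 0.779) on 4 and 6 normal reads, and it ranged from -0.37 to 0.27 when 1 library was left out. Cdh2 in H7 over UNKC tumours was -3.79 ± 0.22 on the log2 scale (SE, edgeR adjusted p = 0.000658) and was called under all 13 alternatives.

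E-cadherin was higher, not lower, in the line with high Cdh2. Cdh1 (chromosome 8, 106603350-106670247) was at 127 and 122 CPM in UNKC tumours, 25.3 and 22.2 CPM in H7 tumours, and 73.1 and 45.8 CPM in normal pancreas. The 3 groups did not overlap, with UNKC highest and H7 lowest. Cdh1 rose in UNKC tumours by 1.07 ± 0.23 on the log2 scale (SE, edgeR adjusted p = 0.0104; 0.70 and 0.0550 with upper-quartile factors). It fell in H7 tumours, at -1.32 ± 0.23 (SE, edgeR adjusted p = 0.00444), a direction that turned with library totals alone (2.01, where the median of all genes was 3.61). Cdh1 in H7 over UNKC tumours was -2.39 ± 0.23 (SE, edgeR adjusted p = 0.00219). So Cdh2 and Cdh1 rose together in UNKC tumours, and in H7 tumours Cdh1 fell while Cdh2 did not pass the test. Per kilobase of gene length, Cdh2 was 0.223 and 0.235 of Cdh1 in the UNKC libraries, 0.0728 and 0.104 in H7, and 0.0299 and 0.0685 in normal pancreas. Cdh1 was the more abundant of the pair in every library. By read counts the log2 ratio was higher than in normal pancreas by 2.34 in UNKC and by 0.94 in H7 tumours, with no overlap. The exact permutation p was 0.333, the smallest possible (adjusted p = 0.519). Cdh1 had 1.78 reads per fragment of the authors' tables in normal pancreas, against 1.44 in H7 and 1.43 in UNKC tumours. In fragments, the H7 libraries held 73 and 103 of Cdh2 and 1213 and 1197 of Cdh1. The normal libraries held 3 and 4 of Cdh2 and 92 and 51 of Cdh1. By fragments the H7 and normal ratios thus overlapped, so the H7 rise depended on the counts used.

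**Figure D3:**
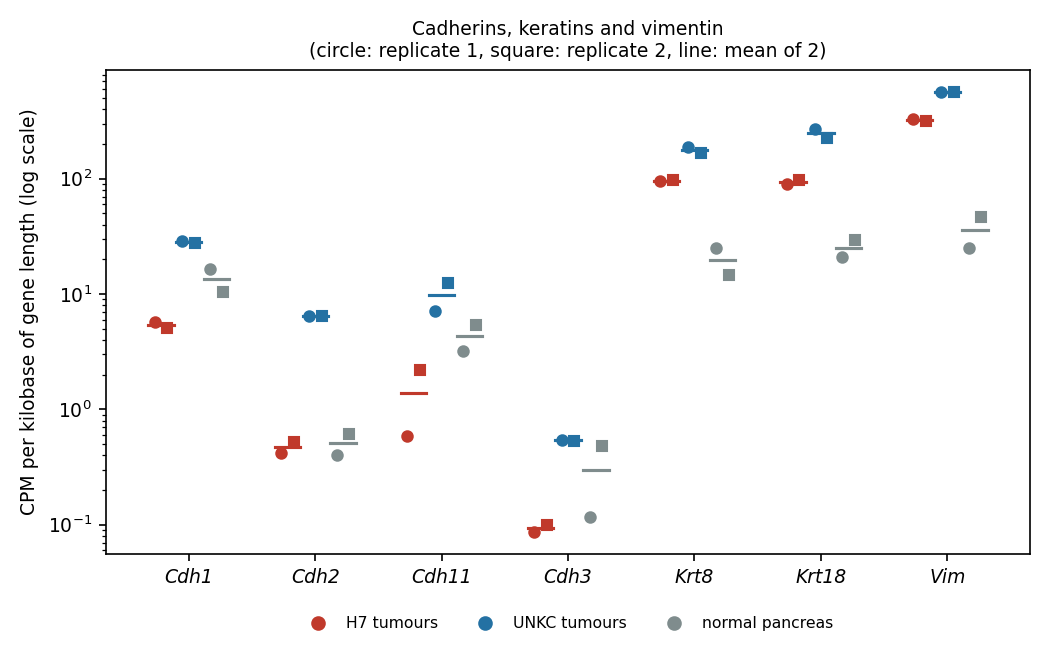
CPM per kilobase of gene length, on a log axis, of 4 cadherins, 2 keratins and Vim in each library, coloured by group, with circles for replicate 1, squares for replicate 2 and a line at the mean of 2. Cdh2 lies below Cdh1 in all 6 libraries, and both are highest in UNKC tumours.

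Cdh11, a type II cadherin of fibroblasts and bone-forming cells (chromosome 8, 102632095-102785493), varied more between libraries of a group. It was at 2.48 and 9.27 CPM in H7, 30.3 and 52.2 CPM in UNKC, and 13.4 and 22.9 CPM in normal pancreas. The order was again UNKC, normal, H7, with no overlap. H7 over UNKC tumours was -2.81 ± 0.65 on the log2 scale (SE, edgeR adjusted p = 0.0342). The call was lost without H7 replicate 1 (-2.13, edgeR adjusted p = 0.113), UNKC replicate 1 (-3.14, 0.0655), UNKC replicate 2 (-2.37, 0.0971), normal replicate 1 (-2.80, 0.0505) or normal replicate 2 (-2.80, 0.0509), and the value was -4.05 without H7 replicate 2. Against normal pancreas it was -1.63 ± 0.68 in H7 (SE, edgeR adjusted p = 0.0944) and 1.18 ± 0.67 in UNKC tumours (SE, edgeR adjusted p = 0.195). Without H7 replicate 2 the H7 value was -2.84 (edgeR adjusted p = 0.0193), and DESeq2 gave -1.76 (adjusted p = 0.0282). The Cdh11 to Cdh1 log2 ratio overlapped between all 3 groups, at -3.28 and -1.19 in H7, -2.01 and -1.16 in UNKC, and -2.34 and -0.92 in normal pancreas.

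Vimentin is the main intermediate filament of mesenchymal cells and of leukocytes. Vim was at 605 and 584 CPM in H7, 1041 and 1040 CPM in UNKC, and 45.8 and 85.4 CPM in normal pancreas. Both tumour groups lay well above normal pancreas. Vim rose by 3.18 ± 0.30 in H7 (SE, edgeR adjusted p = 0.000496) and by 3.99 ± 0.31 in UNKC tumours (SE, edgeR adjusted p = 0.000301). Between the lines it was -0.81 ± 0.27 (SE, edgeR adjusted p = 0.0982), which passed with only the 4 tumour libraries (edgeR adjusted p = 0.0143), without normal replicate 1 (0.00804) or normal replicate 2 (0.00745), and by DESeq2 (adjusted p = 0.0105). For Vim the read counts were 1.44 times the authors' fragment counts, where the median gene had close to 2. With the fragment counts the log2 fold change of Vim was 3.04 in H7 and 3.92 in UNKC tumours. Cdh1 (1.44) and Krt18 (1.42) had similarly low ratios of reads to fragments. The keratins rose with Vim. Krt8 was at 171 and 174 CPM in H7, 338 and 303 CPM in UNKC, and 45.4 and 26.2 CPM in normal pancreas, with log2 fold changes of 2.27 ± 0.26 in H7 (SE, edgeR adjusted p = 0.000905) and 3.16 ± 0.26 in UNKC tumours (SE, edgeR adjusted p = 0.000367). The Vim to Krt8 log2 ratio per kilobase was 1.80 and 1.72 in H7, 1.60 and 1.76 in UNKC, and -0.01 and 1.66 in normal pancreas, so the normal libraries differed from each other by more than the tumour groups did.

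Ordered by CPM per kilobase, Vim was first in all 3 groups. In H7 tumours Zeb2 (10.7 CPM per kilobase), Snai1 (7.04), Zeb1 (4.54) and Cdh11 (1.39) followed, and the neighbours from Cdh2 (0.467) down to Snai2 (0.0989) were not separated by their libraries. In UNKC tumours Cdh11 (9.78 CPM per kilobase), Zeb1 (8.05), Twist1 (7.49), Zeb2 (7.18) and Cdh2 (6.47) came next, and from Cdh11 to Zeb2 each overlapped with the next. Snai1 (1.40) and Snai2 (0.668) were last. In normal pancreas Zeb2 (4.74 CPM per kilobase) stood above Zeb1 (3.93) in both libraries. Cdh11 (4.31) overlapped with each of them, and Prrx1 (1.23) lay below them. So Snai1 ranked next to Zeb2 in H7 tumours and next to last in UNKC tumours, and Twist1 went the other way.

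Within a tumour group, Prrx1 and Cdh11 were higher in replicate 2, the library that also held skeletal muscle RNA. In H7 tumours replicate 2 over replicate 1 was 4.14-fold for Twist1, 3.74-fold for Cdh11, 2.86-fold for Prrx1 and 2.44-fold for Snai2, and 0.964-fold for Vim, 0.968-fold for Zeb2 and 1.03-fold for Zeb1. In UNKC tumours it was 1.72-fold for Cdh11 and 1.54-fold for Prrx1, against 1.09-fold for Twist1 and 1.01-fold for Cdh2. Snai1 was 1.61-fold in UNKC and 0.689-fold in H7 tumours. The summed fibroblast markers, all 8 detected in every library, moved the same way, 1.45-fold in H7 and 1.97-fold in UNKC tumours. Their summed CPM was 570 and 828 in H7, 687 and 1356 in UNKC, and 177 and 262 in normal pancreas. Col1a1 made up most of both rises. Pdgfra was lower in H7 replicate 2 than in H7 replicate 1, and the other fibroblast markers were higher in replicate 2 of both tumour groups. The fibroblast markers did not all point one way between the lines: Col1a1, a fibrillar collagen, was at 154 and 380 CPM in H7 and 533 and 1146 CPM in UNKC tumours, and Pdgfra, a fibroblast receptor, at 165 and 102 CPM in H7 and 23.3 and 40.8 CPM in UNKC tumours. Summed pericyte and smooth muscle markers were 324.5 to 366 CPM in H7 and 68.5 to 102 CPM in UNKC tumours. Pdgfrb and Acta2 carried that sum, while the other 3 markers of the list, Rgs5, Cspg4 and Myh11, were lower in both H7 libraries than in both UNKC libraries. The part of these cells in the differences of the 10 genes was not tested.

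**Figure D4:**
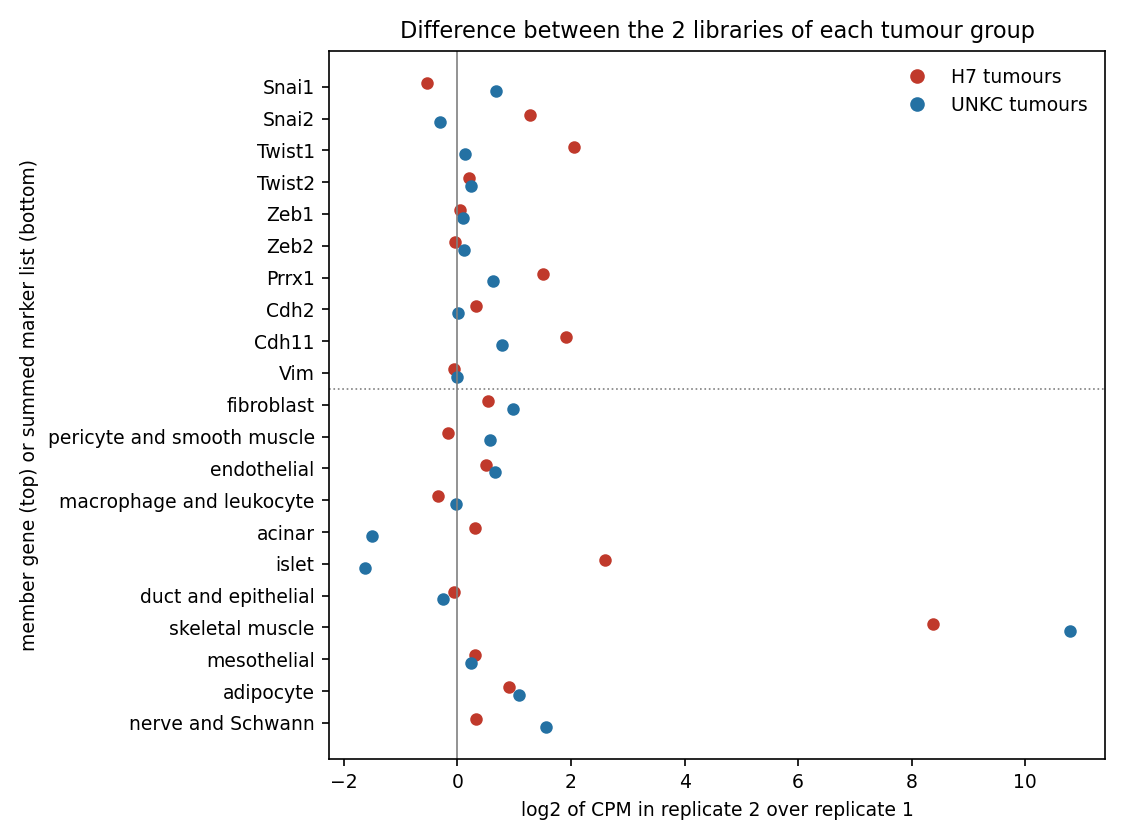
Log2 of the CPM in replicate 2 over replicate 1 within H7 tumours (red) and UNKC tumours (blue), for the 10 genes above the dotted line and the summed marker lists below it. Zeb1, Zeb2 and Vim lie near 0 in both groups, Cdh11 and Prrx1 lie to the right in both, and the skeletal muscle list is the farthest to the right.

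Other genes of the pathway were counted on fixed lists, beside the shares of all genes given above. Of 11 other transition factors tested, 5 rose in H7 tumours (Prrx2, Tcf3, Foxc1, Foxc2 and Sox4), 4 rose in UNKC tumours (Prrx2, Tcf3, Foxc1 and Sox4), and none fell in either; the median log2 fold change was 0.25 and 1.36. The H7 median changed sign with upper-quartile factors (-0.11). Foxc1 in UNKC tumours rested on 2 normal reads (edgeR adjusted p = 0.0368), and its call was lost with upper-quartile factors, only the 4 libraries compared, the fragment counts and without any 1 of the 4 tumour libraries (edgeR adjusted p from 0.0665 to 0.0848). Prrx2, the paralog of Prrx1, had 0 reads in normal pancreas 20.0 ± 2.34 CPM in H7 (SD, n = 2) and 9.61 ± 0.24 CPM in UNKC tumours (SD, n = 2), which is at least 14.2-fold and at least 6.82-fold higher. It was thus higher in H7 tumours, where Prrx1 was low, by 1.06 ± 0.19 on the log2 scale (SE, edgeR adjusted p = 0.0209), a call lost without H7 replicate 1 (edgeR adjusted p = 0.190), H7 replicate 2 (0.101), UNKC replicate 1 (0.143) or UNKC replicate 2 (0.0972). Sox4, a factor of the TGF-beta response, rose by 4.02 ± 0.21 in UNKC tumours (SE, edgeR adjusted p = 0.000145).

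Of 10 tested genes that guard the epithelial state, 6 fell in H7 and 6 in UNKC tumours, with median log2 fold changes of -2.74 and -2.79. With library totals alone 2 fell in each line and the medians were 0.50 and 0.58, under the median of all genes on that scale. Grhl2, a grainyhead factor that activates Cdh1, was at -5.18 ± 0.45 in H7 (SE, edgeR adjusted p = 0.0004) and -5.14 ± 0.45 in UNKC tumours (SE, edgeR adjusted p = 0.000432). Esrp1, an epithelial splicing regulator, was at -4.46 ± 0.51 in H7 tumours (SE, edgeR adjusted p = 0.000975) and at -4.45 in UNKC tumours (edgeR adjusted p = 0.00106). With library totals alone it was not called in H7 (-1.11, edgeR adjusted p = 0.0584) or UNKC tumours (-1.02, edgeR adjusted p = 0.0720). The exceptions that rose were Elf3, Ehf and Klf5 in UNKC tumours and, at 0.77 ± 0.20 (SE, edgeR adjusted p = 0.0186), Klf5 in H7 tumours. That H7 call was lost with upper-quartile factors, DESeq2, only the 4 libraries compared, the fragment counts and without any 1 of the 4 tumour libraries (adjusted p from 0.0548 to 0.212). Ehf, an ETS factor of epithelia, rose by 2.57 ± 0.31 in UNKC tumours (SE, edgeR adjusted p = 0.00131) and was -3.86 ± 0.31 in H7 over UNKC tumours (SE, edgeR adjusted p = 0.00151). Whole normal pancreas is mostly acinar tissue, and summed acinar markers were lower in every tumour library; their part in these changes was not tested.

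Of the 20 epithelial genes that the factors can repress, 9 fell and 3 rose in H7 tumours, and 6 fell and 6 rose in UNKC tumours, with medians of -1.30 and -0.51 (-1.32 and -0.58 over the 19 with a fold or bound). With library totals alone 14 of 20 were higher in H7 and 18 in UNKC tumours and none lower, with medians of 2.04 and 2.94, again under that of all genes. Between the lines 9 of 20 were lower in H7 tumours and none higher, where 11.1% and 7.14% of all genes were, and the median was -1.15. The 9 became 3 without H7 replicate 1 or H7 replicate 2 and 6 without UNKC replicate 1, and DESeq2 gave 12 lower and 1 higher. Dsp, the desmosome protein desmoplakin, was -2.56 ± 0.27 in H7 over UNKC tumours (SE, edgeR adjusted p = 0.00302). The duct keratin Krt7 was -2.74 ± 0.28 (SE, edgeR adjusted p = 0.00268). Summed duct and epithelial markers were 411 and 393 CPM in H7, 1100 and 924 CPM in UNKC, and 223 and 156 CPM in normal pancreas. The markers of this list did not all follow the sum in H7 tumours. Krt8, Krt18, Krt19 and Sox9 were higher in both H7 libraries than in both normal ones, and Cdh1 and Epcam were lower. Epcam was at 12.6 and 9.29 CPM in H7 tumours and 33.8 and 19.1 CPM in normal pancreas.

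Among 17 other cadherins and catenins tested of 26 listed, 9 were lower and 1 (Cdh26) higher in H7 than in UNKC tumours. Without H7 replicate 1, H7 replicate 2 or UNKC replicate 1, and with library totals alone, 4, 4, 5 and 5 were lower, and Cdh26 was not called in any of these or without UNKC replicate 2. Cdh6, a type II cadherin of kidney, was 1.24 ± 0.46 CPM in H7 and 37.8 ± 6.11 CPM in UNKC tumours (SD, n = 2), a log2 difference of -4.93 ± 0.32 (SE, edgeR adjusted p = 0.00083). Cdh17, the liver and intestine cadherin, rose by 3.52 ± 0.19 in UNKC tumours (SE, edgeR adjusted p = 0.00015). Cdh13, a cadherin anchored to the membrane by lipid, rose by 3.97 ± 0.28 in H7 (SE, edgeR adjusted p = 0.000224) and 4.13 ± 0.28 in UNKC tumours (SE, edgeR adjusted p = 0.000214), and by 4.62 and 4.77 without normal replicate 2. Of the 7 other intermediate filament genes tested, the lamin genes Lmna and Lmnb1 rose in both lines, and Nes, the nestin gene, fell in H7 and rose in UNKC tumours, which made 2 higher and 1 lower in H7 and 3 higher and 0 lower in UNKC tumours. Between the lines Nes and Lmna were lower in H7 tumours, and the Lmna call (-0.67, edgeR adjusted p = 0.0201) was lost with library totals alone and without any 1 of the 4 tumour libraries. Lmna rose by 2.80 ± 0.15 in H7 (SE, edgeR adjusted p = 0.000136) and 3.47 ± 0.15 in UNKC tumours (SE, edgeR adjusted p = 0.000139). Nes was at 17.6 and 23.7 CPM in H7, 300.0 and 311 CPM in UNKC, and 214 and 148 CPM in normal pancreas. Nes in H7 over UNKC tumours was -3.89 ± 0.25 (SE, edgeR adjusted p = 0.00083). Its H7 fall (-3.14) turned to 0.20 with library totals alone, and its UNKC rise (0.75, edgeR adjusted p = 0.0349) was lost with upper-quartile factors (0.39), DESeq2 (0.56), only the 4 libraries compared (0.65), the fragment counts (0.57), the ribosomal RNA genes, Lars2 and 1 unnamed gene left out (0.71), and without UNKC replicate 1 (0.80), UNKC replicate 2 (0.75) or normal replicate 2 (0.54).

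The mesenchymal effector genes, which encode matrix and motility proteins, rose in both lines: 12 of 16 in H7 and 15 of 16 in UNKC tumours, with none lower and medians of 2.16 and 3.07. With upper-quartile factors 10 rose and 1 fell in H7 tumours. Tnc, the matrix protein tenascin C, rose by 7.11 ± 0.36 in H7 (SE, edgeR adjusted p = 0.000136) and 5.91 ± 0.35 in UNKC tumours (SE, edgeR adjusted p = 0.000162). S100a4, a calcium-binding protein of motile cells, rose by 5.10 ± 0.19 in UNKC tumours (SE, edgeR adjusted p = 0.000105). Its rise in H7 tumours was 4.64 (edgeR adjusted p = 0.000108). Between the lines Tnc and Acta2 were the 2 genes of this list that were higher in H7 tumours, against 0 without H7 replicate 1 1 without H7 replicate 2 or UNKC replicate 1, 1 with library totals alone and 4 with DESeq2. Acta2, smooth muscle actin, was at 156 and 153 CPM in H7 and 21.3 and 39.4 CPM in UNKC tumours, a log2 difference of 2.35 ± 0.32 (SE, edgeR adjusted p = 0.00617; 0.0653 without H7 replicate 1).

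The genes whose profile over the 6 libraries was closest to each of the 10 were sought among 7036 genes with a mean of at least 10 CPM, by the distance between centred log2 CPM. Vim was closest to Pmepa1 (distance 0.239) and Sox4 (0.310), Zeb2 to Washc5 (0.164) and Taf2 (0.196), Zeb1 to Evi5 (0.194) and Itpr3 (0.213), and Cdh2 to Igfbp7 (0.423). Cdh11 was closest to Aebp1 (0.706) and Prrx1 to Ppic (0.588), Col5a3 (0.678) and Aebp1 (0.736). The 4 factor genes with few normal reads had no close neighbour: the nearest lay at 1.11 for Twist1 (C130074G19Rik), 1.16 for Twist2 (Stc1), 1.87 for Snai1 (Ly86) and 2.46 for Snai2 (Nt5e). These distances describe 6 libraries in 3 groups.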

How the data were processed

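Reads were aligned with STAR to mm10 and counted with featureCounts, per the submitters' processing notes; the versions of both are not given in the sources used here. The authors deposited raw read counts per gene for each of the 6 libraries. Their 2 comparison tables hold fragment counts, TPM that the authors computed from them, and the authors' log2 fold changes with p-values and adjusted p-values from DESeq2 1.18.1, per the submitters' processing notes. RNA was total RNA, per the labels' protocols. TPM was not used for any result. Gene IDs were named from these tables (16286) or RefSeq (9355), and 1538 stayed unnamed.

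The counts were filtered with filterByExpr (minimum count 10, about 0.287 CPM), scaled with TMM and tested in 3 comparisons over all 6 libraries with edgeR 4.0.16 (R 4.3.3) by the quasi-likelihood test with legacy = FALSE and Benjamini-Hochberg adjustment over 16306 genes at a threshold of 0.05. All 10 genes passed the filter. Before TMM scaling, both UNKC libraries exceeded the cutoff for all 10, Snai2 and Twist1 did so in 1 H7 library, and in normal pancreas Snai1 did so in 1 library and Snai2, Twist1 and Twist2 in 0. DESeq2 1.42.0 was an alternative. Folds against a group with 0 reads are bounds against 3 read pairs, and groups with 1 to 3 pairs have 95% exact binomial intervals; both cover counting error only. The fragment counts and the smaller library sizes were alternatives added after seeing the data. The pipeline was tested on simulated data. Ratios use 1 added read per gene. Python 3.11.15, pandas 2.3.3, SciPy 1.17.1 and matplotlib 3.10.9 were used for tables, tests and figures.

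The 10 genes and the lists were chosen with earlier results of these data known. Named genes are the 10, Cdh1, Cdh3 and 3 keratins as their partners, and, per list and comparison, at most 2 rises and 2 falls among genes with 5 CPM or more, of which some are left unnamed. Genes listed behind counts of 5 or fewer, Csf1r, Lyz2, Cd14, Itgam, Pdgfrb, Rgs5, Cspg4, Myh11, Col1a1, Pdgfra, Epcam, Sox9 and Gm29100 were chosen after their values were seen. Promoters matched 6 of the 10 genes outside chromosome 18.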

Additional observations from a re-analysis of the deposited data

Results flagged for a closer look

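The effects of H7 and UNKC tumours against normal pancreas differed for 9 of the 10 genes by edgeR's test of the difference itself (adjusted p from 0.000658 to 0.0342, n = 2 libraries a group). Of all genes, 18.3% differed in this test. Most of the 9 calls rested on having 2 libraries a group, as given above. Snai2 and Twist1 had passed the low-count filter only with the UNKC libraries, where they were high. The difference, H7 minus UNKC on the log2 scale, was 2.33 for Snai1, -2.72 for Snai2, -5.73 for Twist1, -4.52 for Twist2, -0.83 for Zeb1, 0.57 for Zeb2, -2.59 for Prrx1, -3.79 for Cdh2 and -2.81 for Cdh11. Both libraries of a line showed the direction for each of these genes, and the lines were likewise without overlap for 70.4% of all genes. The difference equals the direct comparison of the tumour lines, since the normal libraries are shared.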

How the results depend on the processing

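Of 404 recomputed fold changes of the 10 genes, 345 kept their sign and their side of the threshold, 9 changed sign with neither value past it, 20 passed it, 28 lost it and 2 turned and passed it. Library totals alone gave 7 genes higher in H7 and 10 in UNKC tumours than in normal pancreas (against 3 and 6) and 1 higher in H7 than in UNKC tumours (against 2). They also turned the H7 log2 fold changes of Snai2 to 1.52, Twist1 to 1.26 and Cdh11 to 1.63, none of them called, and of Prrx1 to 1.59, Cdh2 to 3.17, Cdh1 to 2.01, Ehf to 2.01, Cdh6 to 1.78, Cdh17 to 2.30 and Nes to 0.20, and that of Dsp in UNKC tumours to 2.20, with the median of all genes at 3.61 and 3.77. Genes that fell in H7 tumours against normal pancreas numbered 0, against 1 with upper-quartile factors and 2 with DESeq2, and 4 of the 10 had an unadjusted p under 0.05. When 1 library was left out this count ran from 0 to 3, genes higher in H7 than in UNKC tumours from 0 to 2, and genes lower from 2 to 7. The cause of these shifts was not tested. In the fit with only 4 libraries, 4816 of all genes differed between the tumours, and with DESeq2 5326, against 2981.

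The replicate block, a fit with the replicate number as a term, gave 2 genes that fell against normal pancreas in H7 tumours, Prrx1 (-1.86) and Cdh11 (-1.80), and 7 higher in UNKC tumours, with Cdh11 added. The deviations of same-numbered libraries correlated at 0.526 between H7 and UNKC tumours and at -0.0122 and -0.0232 with normal pancreas, and nothing in the labels pairs them.

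The difference of the Cdh11 to Cdh1 log2 ratio had no stable sign. With 1 library left out it ran from -1.65 to 0.44 for H7 against normal pancreas (0.10 without normal replicate 2), from -0.66 to 0.76 for UNKC against normal pancreas (-0.38 without UNKC replicate 2) and from -1.70 to 0.39 between the tumours, and it was -0.33 for UNKC tumours with the fragment counts. Depth limits Snai1, Snai2, Twist1 and Twist2 in normal pancreas, where no library held more than 4 reads of any of them.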
